A study of Mus musculus with 17 samples.

Results

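The interferon lambda axis was described here through 4 genes of the 38340 named genes kept from the mouse spleen table. The ligand genes were Ifnl2 and Ifnl3, and the receptor chains were Ifnlr1 and Il10rb. Each member was taken by its symbol and followed in all 17 libraries, and the set was chosen on values of these libraries, as genes higher with poly(I:C) than with the stem-loop RNAs. The values bore that out for the 2 ligand genes, and neither receptor gene was clearly higher with poly(I:C). Levels with poly(I:C), and every difference between poly(I:C) and the stem-loop RNAs, are therefore given for the members as description with no test.

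Type III interferons, the interferon lambdas, are secreted antiviral cytokines made after cells sense viral RNA or DNA. They signal through a heterodimer of IFNLR1, the chain that binds only interferon lambda, and IL10RB, which also serves interleukin 10 and interleukin 22. The pair activates the kinases JAK1 and TYK2, which type I interferon receptors use as well, and turns on largely the same antiviral genes. IFNLR1 is known for its restriction to epithelial cells and a few leukocyte types, whereas IL10RB is broadly expressed, which makes spleen an unusual place to follow this receptor.

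Spleens came from CB57BL/6NCrl mice (strain as labelled), with 3 libraries each after SLR10, SLR14, poly(I:C) or pppNS, 2 after jetPEI vehicle and 3 from untreated, naive mice. SLR10 and SLR14 are stem-loop RNAs that differ in stem length and activate the cytosolic sensor RIG-I. Poly(I:C) is a long double-stranded RNA mimic sensed by TLR3, MDA5 and RIG-I, and pppNS is given only as that name. The protocol on every library describes 25 µg of RNA in 200 µl injected intravenously, with stem-loop RNAs complexed to the polymer in vivo-jetPEI at an N/P ratio of 8; whether the RNAs other than SLR10 and SLR14 were complexed in that way, and the time to collection, are not given in the sources used here. The labels do not say outright that each library was a separate mouse, so p-values measure the spread between these libraries.

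The libraries held 26453585 to 42775104 recovered reads, and 1 read was worth 0.0175 to 0.0431 CPM, the table's normalized unit. Columns did not sum to a common size. The sums were 696096 to 748327 in vehicle and naive libraries and 1058770 to 1275800 with SLR10, SLR14 and poly(I:C). With pppNS they ran from 782210 to 1484240. The recovered reads and the column sums include the 5 lines without a name, which were removed before the genes were analyzed. These 5 lines alone held 28.1% to 46.1% of the recovered reads, most in pppNS replicate 3. Whether they stand for genes was not tested. Reads in named genes ran from 15763030 (SLR14 replicate 3) to 29557853 (naive replicate 2). Summed erythroid markers lay at 2626 to 3203 CPM in the vehicle libraries, and their highest values were 28724 CPM (SLR14), 35773 CPM (poly(I:C)) and 60126 CPM (pppNS). Naive libraries ran from 3694 to 10629 CPM, and pppNS replicates 1 and 2 stood at 7997 and 6938 CPM. SLR14 replicate 2, poly(I:C) replicates 2 and 3 and pppNS replicate 3 stood above all other libraries, the lowest at 17424 CPM (poly(I:C) replicate 3). Values without those SLR14 and poly(I:C) libraries are given below beside the results that rest on them.

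In GRCm38 with GENCODE M21 annotation, the ligand genes are a divergent pair on chromosome 7. Ifnl2 lies at chr7:28508836-28510455 on the minus strand and Ifnl3 at chr7:28522836-28524322 on the plus strand, 12380 bases apart, each with 5 exons. Their coding sequences are both 579 bases long and 97.1% identical, with 17 substitutions. The stretch below, coding bases 414 to 563 in exons 4 and 5, holds 10 of these and is shown because it is where reads can best tell the genes apart. It lies within chr7:28508880-28509111 for Ifnl2 and chr7:28524071-28524303 for Ifnl3. Capitals mark the bases that differ, and both sequences are written 5′ to 3′ on the gene's strand.
Ifnl2: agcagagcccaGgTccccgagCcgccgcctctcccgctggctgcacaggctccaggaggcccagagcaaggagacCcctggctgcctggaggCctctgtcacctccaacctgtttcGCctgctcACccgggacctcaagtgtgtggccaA
Ifnl3: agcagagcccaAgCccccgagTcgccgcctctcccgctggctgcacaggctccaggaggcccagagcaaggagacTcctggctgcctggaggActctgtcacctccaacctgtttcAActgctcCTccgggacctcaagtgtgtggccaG

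Of the 50-base windows of the Ifnl2 transcript, 31.7% also occur in Ifnl3, and 38.8% of those of Ifnl3 occur in Ifnl2. At 100 bases the shares are 11.1% and 13.9%. How reads matching both genes were counted is not given in the sources used here, so the split between the ligand genes is uncertain, and both counts may be too low.

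The likeness extends upstream. The RefSeq windows around the starts of these genes (GRCm38.p6) are 99.0% identical over 300 bases. The first 155 bases of each window hold all 3 differences, in capitals, and are shown because both ligand genes were highest with the same treatment. They end just before the GENCODE start of Ifnl2 and 95 bases short of the start of Ifnl3. They are at chr7:28510456-28510610 on the minus strand for Ifnl2 and chr7:28522586-28522740 on the plus strand for Ifnl3.
Ifnl2 upstream: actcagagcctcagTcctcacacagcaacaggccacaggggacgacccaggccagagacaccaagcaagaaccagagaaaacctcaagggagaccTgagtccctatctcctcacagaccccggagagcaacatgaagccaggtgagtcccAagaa
Ifnl3 upstream: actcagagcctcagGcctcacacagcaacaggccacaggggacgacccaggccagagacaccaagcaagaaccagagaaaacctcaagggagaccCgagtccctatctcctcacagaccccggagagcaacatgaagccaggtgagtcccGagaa

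Neither of these windows, nor that of Ifnlr1, held a match on either strand to 4 motifs. These were the interferon-stimulated response element core GAAANNGAA (in 8.56% of the 32851 RefSeq windows), the IRF element AANNGAAA (23.9%), the gamma-activated site TTCNNNGAA (8.30%) and the kappa-B motif (4.51%), and the first and second can overlap. The Ifnl2 window starts from a RefSeq site 95 bases downstream of the GENCODE start, and that of Ifnlr1 from a site 170 bases downstream. A lack of match says only that those letters are not in these windows.

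The receptor genes lie elsewhere. Ifnlr1 is at chr4:135686287-135708181 on the plus strand, with 7 exons, and its next gene is the interleukin 22 receptor gene Il22ra1, 19990 bases away. Il10rb is at chr16:91406164-91425834 on the plus strand, 59403 bases from the type I interferon receptor gene Ifnar1. A read-through gene model on the same strand, Gm21970, shares 569 of the 3808 exon bases of Il10rb (14.9%) and was listed at 0 in all 17 libraries. Reads in the shared exons could have been set aside, so the absolute level of Il10rb is uncertain.

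Both ligand genes were silent in control spleens and read out after the stem-loop RNAs and poly(I:C). Ifnl2 had 0 reads in the 2 vehicle and 3 naive libraries, and so did Ifnl3. A count of 0 allows up to 0.0525 to 0.0795 CPM per library there, taken as 3 reads, which covers counting error only.

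With SLR10, Ifnl2 stood at 1.54, 1.398 and 2.23 CPM. SLR14 gave 0.957, 0.476 and 0.474 CPM, and poly(I:C) gave 9.94, 6.86 and 8.46 CPM. With pppNS, Ifnl2 stood at 0.0294, 0.0212 and 0 CPM, which is 2 reads in all. Each SLR10 library was above each SLR14 library, each poly(I:C) library was above both, and the pppNS libraries overlapped the controls. How many of all genes separate between these groups was not counted, and the poly(I:C) values are those that chose the gene.

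Ifnl3 stood at 0.660, 0.262 and 0.720 CPM with SLR10. It stood at 0.383, 0.127 and 0.172 CPM with SLR14 and at 7.08, 3.41 and 4.96 CPM with poly(I:C), and 1 pppNS library held a single read. The order of the group means was the one seen for Ifnl2, but here the libraries of SLR10 and SLR14 overlapped.

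**Figure D1:**
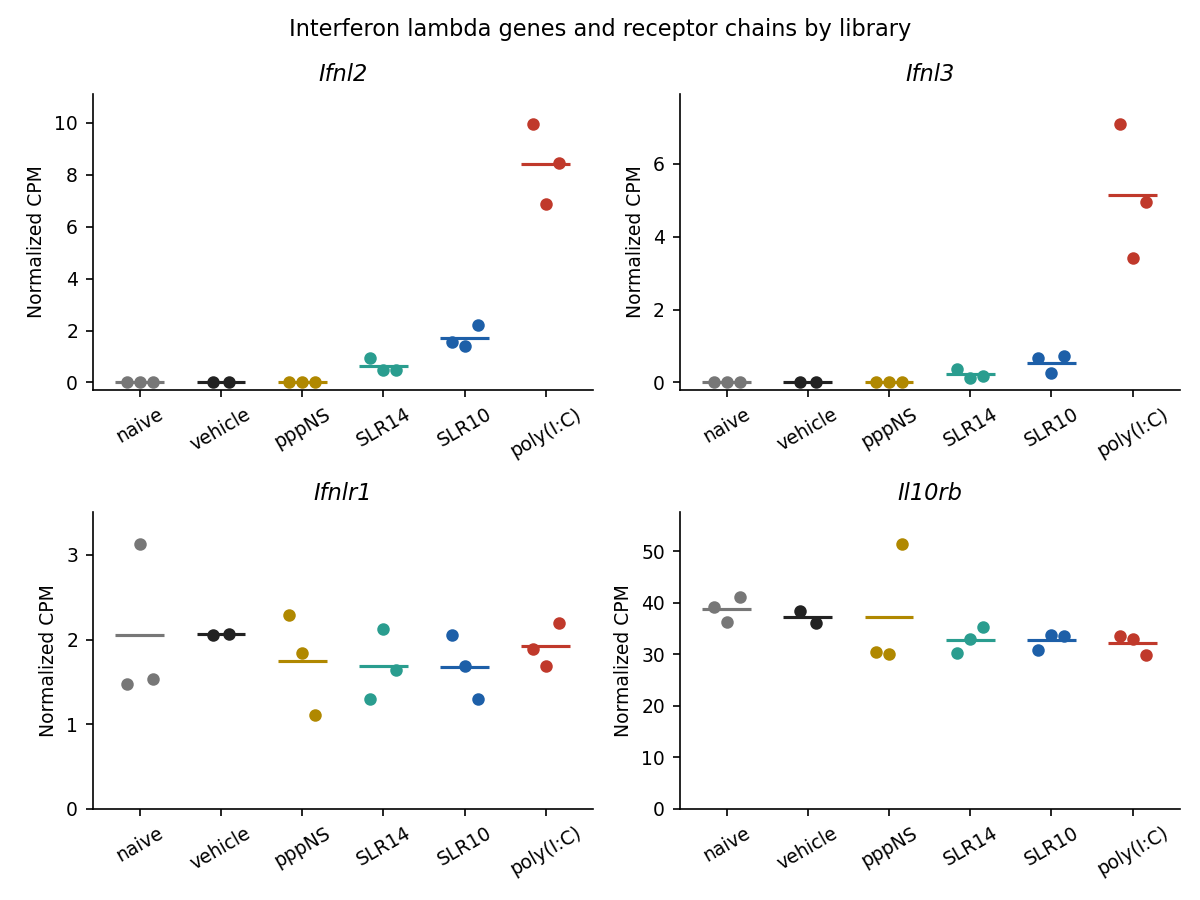
Normalized CPM (y axis) of each member in every library, grouped by treatment (x axis); points are libraries and bars are group means. The ligand genes lie at 0 in all 5 control libraries and highest with poly(I:C) (Ifnl2 6.86 to 9.94 CPM), while Ifnlr1 and Il10rb overlap among most groups.

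Differences were tested with limma on log2(CPM + 0.5) over 14010 genes with at least 1 CPM in 2 libraries, with Benjamini-Hochberg adjustment over all of them. Ifnl2 passed this filter through SLR10 and poly(I:C) libraries, and Ifnl3 passed it through poly(I:C) libraries alone. Of all genes tested, 39.4% passed an adjusted p of 0.05 between SLR10 and vehicle (20.2% higher, 19.2% lower) and 38.7% between SLR14 and vehicle (19.3% higher, 19.4% lower). Every SLR10 and SLR14 value of Ifnl3 lay under 1 CPM, so its test there was open only because poly(I:C) carried it past the filter. The result of the limma test at the main pseudocount is given with and without the filter.

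Ifnl2 rose with SLR10 by 2.13 ± 0.21 on the log2(CPM + 0.5) scale (SE, n = 3 against 2, limma adjusted p = 2.803e-06). With SLR14 it rose by 1.16 ± 0.21 (limma adjusted p = 0.0005346). Since vehicle had no read, these fitted changes depend on the pseudocount and are no bounds. Against 3 reads over the vehicle group, the pooled 152 reads of SLR10 were 50.1-fold higher, the 51 reads of SLR14 18.6-fold and the 783 reads of poly(I:C) 250-fold. These folds leave out the counting error of the treated reads and the spread between libraries, so they are not bounds either.

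Ifnl3 rose with SLR10 by 1.04 ± 0.25 (limma adjusted p = 0.004838, and 0.005855 with no filter on low values), a call that a pseudocount of 2 ended (adjusted p = 0.08918). With SLR14 its difference from vehicle was 0.52 (95% interval -0.02 to 1.07, limma adjusted p = 0.1244, and 0.1491 with no filter). The count tests on the recovered reads called that difference (edgeR adjusted p = 0.005238, DESeq2 0.001232), as did a pseudocount of 0.1 (0.005859). These calls were made under the filter that Ifnl3 passed through poly(I:C) alone. They were not run without it, so nothing is concluded from them. By pooled reads, with the same limit, Ifnl3 was 15.5-fold above the vehicle floor with SLR10 (47 reads), 6.55-fold with SLR14 (18 reads) and 155-fold with poly(I:C) (485 reads).

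Between the stem-loop RNAs, Ifnl2 was lower with SLR14 in each library. The difference was -0.98 ± 0.19 (95% interval -1.38 to -0.58), with a limma p of 0.0001291 before and 0.904 after adjustment. Ifnl3 differed by -0.51 (95% interval -1.0003 to -0.02, limma adjusted p = 1). Of all genes tested, 0% passed in this comparison: limma called 0 genes, with 89 at an unadjusted p under 0.05, edgeR called 0 and DESeq2 called 1. The pooled reads of Ifnl2 were 2.70 times higher with SLR10 (95% counting interval 1.95 to 3.78) and those of Ifnl3 2.36 times (1.35 to 4.32), intervals that leave out the spread between libraries.

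Neither ligand gene passed between pppNS and vehicle, where 4.3% of all genes passed (2.96% higher, 1.35% lower). Ifnl2 differed by 0.05 (95% interval -0.40 to 0.50) and Ifnl3 by 0.02 (-0.53 to 0.57). With at most 1 read per gene in a pppNS library, no signal was detectable at this depth. The ligand genes gave no fold change between vehicle and naive spleens, both at 0; there 0.05% of all genes passed (0.0143% higher, 0.0357% lower).

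**Figure D2:**
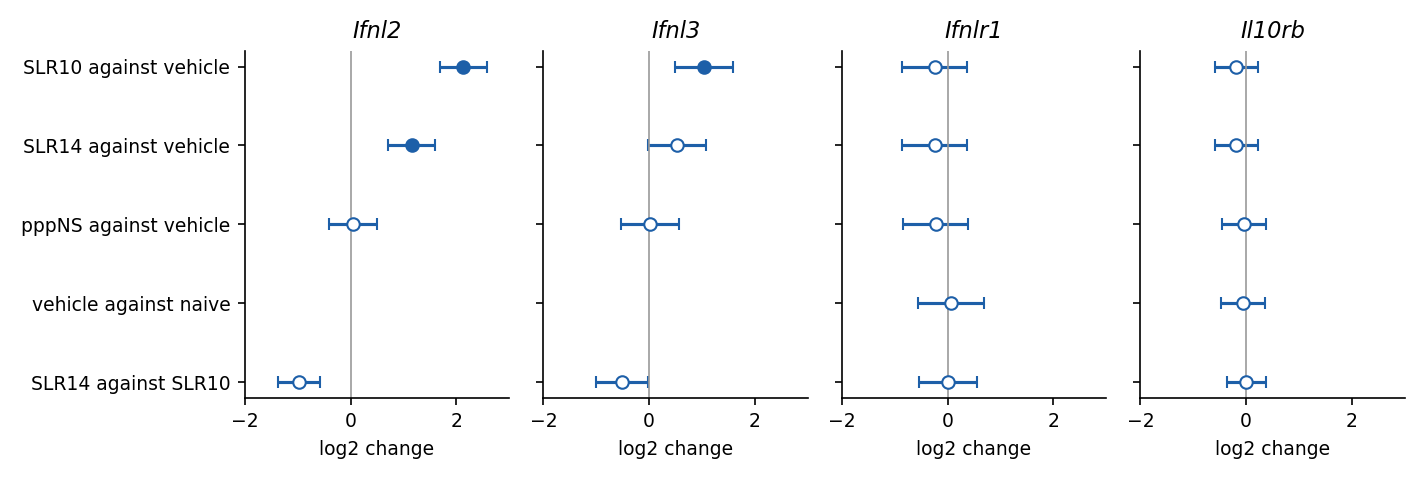
Difference on the log2(CPM + 0.5) scale (x axis) with its 95% interval for each member in the 5 comparisons tested (y axis); filled points passed an adjusted p of 0.05. Only Ifnl2 with SLR10 and SLR14 and Ifnl3 with SLR10 are filled, and the ligand genes have no point for vehicle against naive, where both stood at 0.

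As description of the values that chose the members, poly(I:C) was compared with each stem-loop RNA. The mean CPM of Ifnl2 was 4.88 times higher with poly(I:C) than with SLR10 and 13.2 times higher than with SLR14. For Ifnl3 the ratios of means were 9.41 and 22.7. The receptor genes gave 1.15 and 1.14 (Ifnlr1) and 0.983 and 0.981 (Il10rb), so the members did not behave as a set. In the same contrast, 3.5% of all genes passed (1.66% higher and 1.85% lower with the stem-loop RNAs; without poly(I:C) replicate 1, 388 genes were higher and 1063 lower), and nothing is read from this for the members.

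The makeup of the ligand reads also varied. Ifnl3 supplied 30%, 15.8% and 24.4% of the Ifnl2 and Ifnl3 reads with SLR10, and 28.6%, 21.1% and 26.7% with SLR14. In the poly(I:C) libraries it supplied 41.6%, 33.2% and 37.0%, above each stem-loop library. The exact binomial 95% interval ran from 6.05% to 45.6% in SLR14 replicate 2, which had 19 such reads, and from 37.7% to 45.7% in poly(I:C) replicate 1, which had 603. The mean share was 23.4% with SLR10 and 25.4% with SLR14, with overlapping libraries (two-sided exact permutation p = 0.7, where 3 against 3 cannot go below 0.1). The share rests on the uncertain split between the genes.

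Interferon beta (Ifnb1), the type I interferon made early after RNA sensing, gave a yardstick from the same libraries. Per exon length, Ifnl2 and Ifnl3 together came to 25.7, 25.7 and 28.0 per 100 of Ifnb1 in the poly(I:C) libraries. With SLR10 the values were 1.00, 1.16 and 1.37, and with SLR14 they were 0.643, 0.396 and 0.303. The 3 groups did not overlap, and the group means were 26.5 ± 1.31, 1.17 ± 0.18 and 0.447 ± 0.176 (SD, n = 3 each). For SLR10 against SLR14 the two-sided exact permutation p was 0.1, the smallest that 3 against 3 allows, and 0.2 after adjustment over the 2 measures compared between these RNAs. Ifnb1 itself had a mean of 217 CPM with SLR10, 215 with SLR14 and 59.2 with poly(I:C), so both parts of the ratio differed between poly(I:C) and the stem-loop RNAs, in opposite directions.

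**Figure D3:**
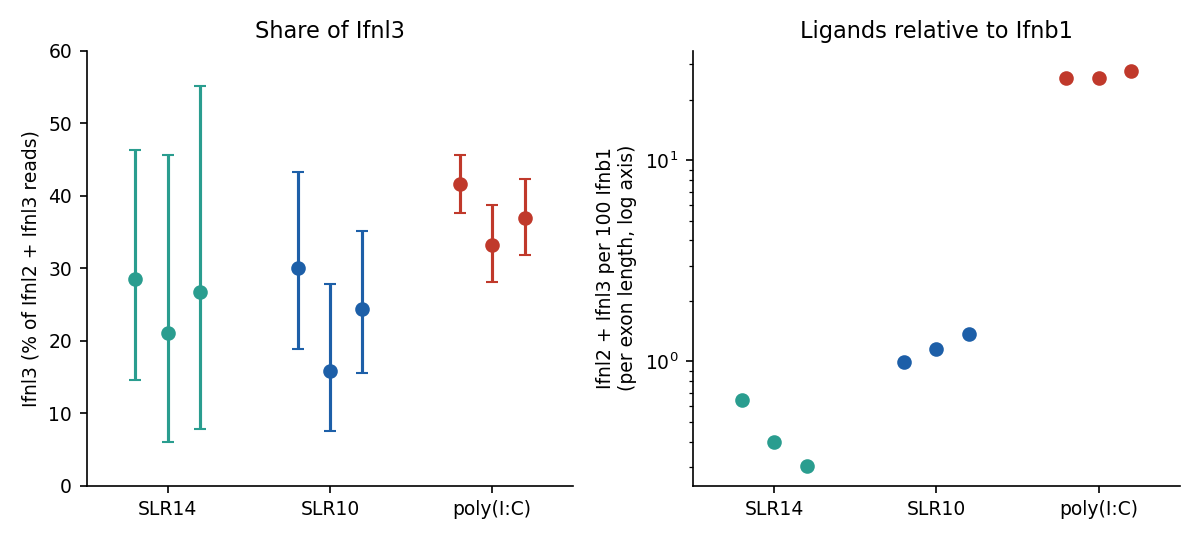
Left, share of Ifnl3 among the ligand reads (y axis, percent, with exact binomial 95% intervals) in each library of SLR14, SLR10 and poly(I:C). Right, Ifnl2 plus Ifnl3 per 100 of Ifnb1, per exon length, on a log axis; poly(I:C) libraries lie at 25.7 to 28.0 and stem-loop libraries at 0.303 to 1.37.

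The other interferon genes ran the other way. Of the 15 listed type I and II interferon genes in the table, 12 were tested, and 11 of them were higher with the stem-loop RNAs than with poly(I:C); the list's median difference was 1.94 on the log2(CPM + 0.5) scale against -0.03 over all genes tested. Ifnb1 was higher by 1.87 ± 0.20 (limma adjusted p = 0.0002596), and the interferon alpha genes ran from 1.57 ± 0.22 for Ifna1 (limma adjusted p = 0.001628) to 2.60 ± 0.17 for Ifna13 (2.553e-06). Ifng, the type II interferon, differed by 0.06 (95% interval -0.88 to 0.99) and did not pass. The interferon alpha genes are close copies whose reads may be split among them. Without the 3 SLR14 and poly(I:C) libraries high in erythroid markers, 4 of the 12 passed, and Ifnb1 was higher by 1.54 (limma adjusted p = 0.05471). The difference of Ifnl2, as description, was -2.50 with all libraries and -2.69 without those 3.

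Ligands of the interleukin 10 family, which share IL10RB or its relatives, stood at similar levels with these RNAs. Il10, an anti-inflammatory cytokine, had a mean of 4.27 ± 0.67 CPM with SLR10, 3.94 ± 1.02 with SLR14 and 4.81 ± 1.75 with poly(I:C) (SD, n = 3 each), against 0.264 with vehicle. Il22, an epithelial barrier cytokine, had means of 4.13, 3.55 and 3.87 CPM and was at 0 in both vehicle libraries. These 2 of the 6 listed genes were tested, and both rose with each of the 3 RNAs. Between the stem-loop RNAs and poly(I:C), Il10 differed by -0.17 (95% interval -0.78 to 0.44) and Il22 by -0.04 (-0.67 to 0.59), and neither passed.

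**Figure D4:**
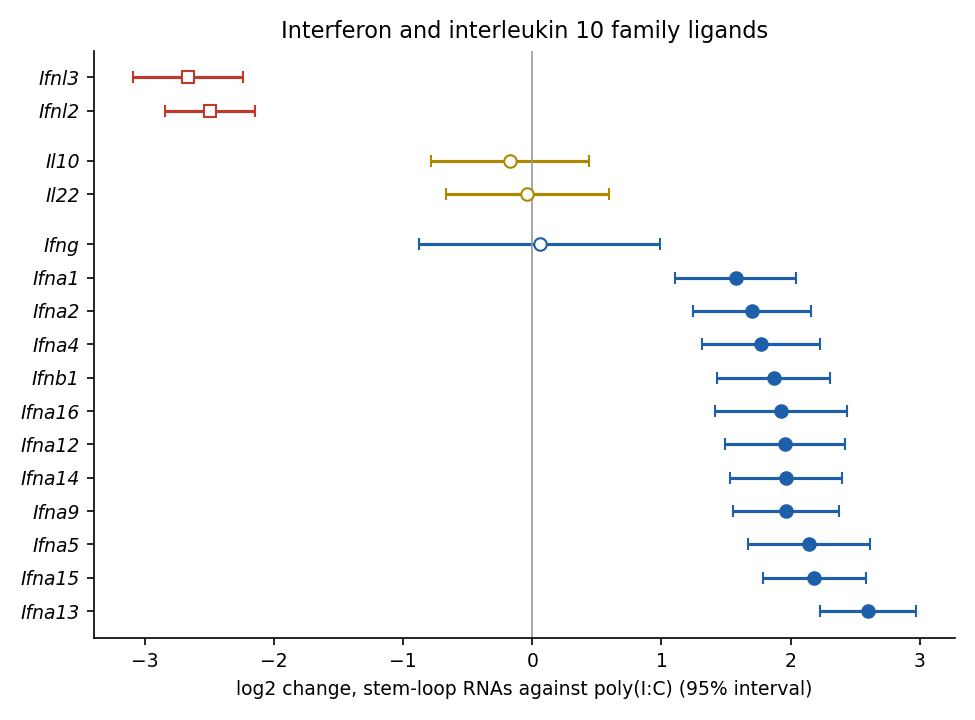
Difference between the stem-loop RNAs and poly(I:C) on the log2(CPM + 0.5) scale (x axis) with its 95% interval for ligand genes (y axis); filled circles passed an adjusted p of 0.05, and the open squares are members, shown without a test. Ifnl2 and Ifnl3 lie left of 0, Il10, Il22 and Ifng near 0, and 11 type I interferon genes between 1.57 and 2.60.

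Ifnlr1, the ligand-binding chain, was low, and its groups overlapped. Vehicle libraries stood at 2.05 and 2.07 CPM, and naive libraries at 1.48, 3.13 and 1.54 CPM. The values were 2.05, 1.69 and 1.30 CPM with SLR10, and 1.30, 2.13 and 1.64 CPM with SLR14. Poly(I:C) libraries gave 1.89, 1.69 and 2.19 CPM, and pppNS libraries 2.29, 1.85 and 1.10 CPM. All neighbouring groups in the order of means overlapped, and the highest and lowest libraries were naive replicate 2 and pppNS replicate 3.

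No tested difference of Ifnlr1 passed. It was -0.25 between SLR10 and vehicle (95% interval -0.86 to 0.37, limma adjusted p = 0.5552) and -0.24 between SLR14 and vehicle (-0.86 to 0.37). Between pppNS and vehicle it was -0.22 (-0.84 to 0.39), between vehicle and naive 0.07 (-0.55 to 0.68) and between the stem-loop RNAs 0.00 (-0.55 to 0.56). These intervals, from 31 to 179 reads per library, reach changes of over 0.5 on the log2 scale in both directions for the last 2 comparisons, so moderate changes could not be seen.

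Il10rb, the shared chain, was more abundant and steadier. Vehicle libraries stood at 38.3 and 36.2 CPM, and naive libraries at 39.1, 36.2 and 41.1 CPM. SLR10 libraries gave 30.8, 33.8 and 33.5 CPM, SLR14 libraries 30.1, 32.9 and 35.2 CPM, and poly(I:C) libraries 33.6, 33.0 and 29.8 CPM. Each of these 9 libraries was below each of the 5 control libraries, but the share of all genes that separate in this way was not counted. With pppNS, replicates 1 and 2 stood at 30.5 and 30.01 CPM and replicate 3, the library highest in erythroid markers and in reads without a gene name, at 51.5 CPM; the part of that makeup in the value was not tested.

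Il10rb did not pass the test. The difference was -0.19 with SLR10 (95% interval -0.60 to 0.22, limma adjusted p = 0.496) and -0.18 with SLR14 (-0.59 to 0.23, adjusted p = 0.5005). With pppNS it was -0.04 (-0.45 to 0.37), and without pppNS replicate 3 it was -0.29 (limma adjusted p = 0.1865). Between vehicle and naive it was -0.06 (-0.47 to 0.35), and between the stem-loop RNAs 0.00 (-0.37 to 0.37). In bulk spleen, fewer cells of a type and less RNA per cell cannot be told apart.

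Levels per exon length allow the genes to be set side by side. With vehicle, Il10rb stood at 9.78 CPM per kb and Ifnlr1 at 0.492. With poly(I:C), Ifnl2 reached 11.99 and Ifnl3 8.85 CPM per kb, near the 8.44 of Il10rb, and Ifnb1 reached 78.9. With SLR10 the ligand genes stood at 2.46 and 0.941 CPM per kb against 289 for Ifnb1.

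The receptor chains were compared with their relatives, the class II cytokine receptors, of which 8 of 10 listed genes were tested. Between SLR10 and vehicle, 3 rose and 2 fell, with a median of 0.21 against -0.01 over all genes. Of all genes, 20.2% rose and 19.2% fell there. SLR14 gave the same counts for the list. Il10ra, the partner of IL10RB for interleukin 10, rose by 1.69 ± 0.21 with SLR10 (limma adjusted p = 2.255e-05). F3, tissue factor, rose by 1.98 ± 0.35 and Il20rb, an interleukin 20 receptor chain, by 1.08. The interferon gamma receptor genes Ifngr1 and Ifngr2 fell by 1.06 and by 0.73. Without vehicle replicate 1, 3 genes of the list passed with SLR10.

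Between poly(I:C) and vehicle, 35.9% of all genes passed (18.6% higher, 17.3% lower), and 4 class II receptor genes rose and 2 fell. The gene that passed there beside the 5 named was Ifnar2, a type I interferon receptor chain, at 0.90 ± 0.28 on the log2(CPM + 0.5) scale. Its adjusted p was 0.0783 without poly(I:C) replicate 2, 0.05085 without replicate 3, 0.1027 or 0.11 without 1 or the other vehicle library, and 0.2296 without the 3 SLR14 and poly(I:C) libraries high in erythroid markers. With pppNS only Ifngr1 passed, and it fell by 0.71, a call that was lost without either vehicle library. The genes for the other interleukin 22 and interleukin 20 receptor chains, Il22ra1 and Il20ra, were not tested because they did not reach 1 CPM in 2 libraries.

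**Figure D5:**
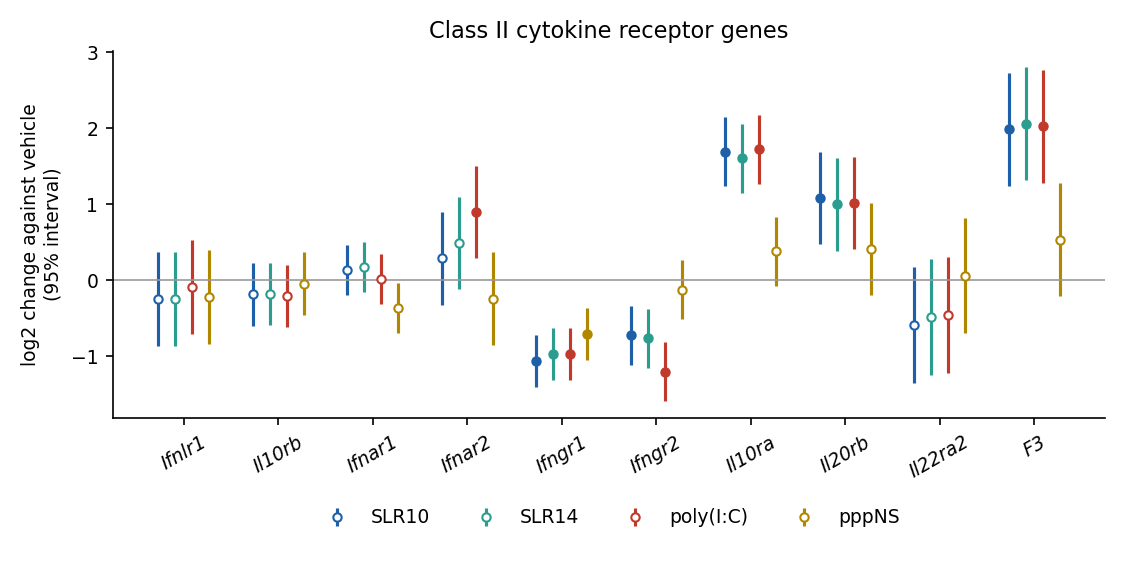
Difference from vehicle on the log2(CPM + 0.5) scale (y axis) with its 95% interval for Ifnlr1, Il10rb and the 8 tested class II cytokine receptor genes (x axis), colored by treatment; filled points passed an adjusted p of 0.05, and poly(I:C) points of the members carry no test. Ifnlr1 and Il10rb lie between -0.25 and -0.04, while Il10ra and F3 lie above 1.5 after every RNA but pppNS.

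Downstream of the receptor, 8 of 10 genes of the signalling list rose with each of SLR10, SLR14 and poly(I:C), where 18.6% to 20.2% of all genes rose. With pppNS 5 rose, where 2.96% of all genes rose, or 3 without vehicle replicate 2. The list's median against vehicle was 2.16 to 2.24 with these RNAs and 1.15 with pppNS. Usp18, an inhibitor of type I interferon signalling, rose by 5.36 ± 0.33 with SLR10 and 4.09 ± 0.33 with pppNS. Socs1, a feedback inhibitor of JAK kinases, rose by 5.29 and 2.98, and Stat2, a signal transducer of interferon receptors, by 2.95 and 1.66. The kinase genes Jak1 and Tyk2 did not pass with any of the RNAs (0.29 and 0.34 with SLR10). Between the stem-loop RNAs and poly(I:C) 0 of the 10 passed by limma. These genes answer type I as well as type III interferon, and the 2 cannot be told apart in these libraries.

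Among 24 genes that induce or repress interferon lambda, each stem-loop RNA raised 17, where 20.2% (SLR10) and 19.3% (SLR14) of all genes rose. Poly(I:C) raised 17 and lowered 2, where 18.6% of all genes rose and 17.3% fell. In the pppNS comparison 7 rose, where 2.96% of all genes rose, or 4 when either vehicle library was left out. Irf7, an interferon regulatory factor, rose by 4.45 ± 0.24 with SLR10. The sensor genes Ifih1 (MDA5), Ddx58 (RIG-I) and Tlr3 rose by 4.71, 2.96 and 2.35. The list's median against vehicle was 1.21 with SLR10 and 1.27 with poly(I:C).

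The genes that fell with poly(I:C) were Ticam1 and Traf3, which encode the TLR3 adaptor TRIF and a ubiquitin ligase of the same pathway. Ticam1 stood at a mean of 9.22 ± 0.83 CPM with poly(I:C), 15.7 ± 1.42 with SLR10 and 14.2 ± 2.48 with SLR14 (SD, n = 3 each). It fell by 0.49 against vehicle (limma adjusted p = 0.04969), a call lost when any poly(I:C) or vehicle library was left out (0.06461 to 0.2084), at a pseudocount of 2 (0.05447), with no filter (0.06492) and with the replicate number as a block (0.07604). It alone of the list differed between the stem-loop RNAs and poly(I:C), by 0.66 ± 0.14 (limma adjusted p = 0.02306). Without the libraries high in erythroid markers these had adjusted p-values of 0.2261 and 0.4573. Leaving out SLR10 replicate 2 or 3, SLR14 replicate 1, or poly(I:C) replicate 2 or 3 also ended it (0.05562 to 0.1247). Traf3 fell by 0.91 (0.01246), and leaving out either vehicle library ended that call (0.07768 and 0.06359), as did leaving out the libraries high in erythroid markers (0.1894). With naive as the control it was lower by a smaller amount, -0.49, and did not pass (0.09795).

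Markers of other cell types that spleen could hold were summed per library. Epithelial markers stood at 4.03 to 9.78 CPM over all libraries, with overlapping groups and 7 or 8 of 10 genes under 1 CPM in every library of a group. Conventional type 1 dendritic cells are a known source of interferon lambda after poly(I:C). Their markers summed to 457 to 464 CPM with vehicle, 386 to 415 with SLR10, 282 to 391 with SLR14 and 311 to 433 with poly(I:C). Naive libraries gave 333 to 446 CPM and pppNS libraries 323 to 420, so by this sum both overlapped these treated groups. By the mean of the same 10 genes on the log2 scale, neither overlapped them. That mean ran from 3.13 to 3.52 over the SLR10, SLR14 and poly(I:C) libraries. It was 3.93 to 4.17 with pppNS, 4.33 to 4.63 in naive and 4.58 to 4.61 in vehicle libraries, and these gaps were not tested. Against vehicle, 7 of 10 passed as lower with each of SLR10, SLR14 and poly(I:C), where 17.3% to 19.4% of all genes were lower. Plasmacytoid dendritic cell markers summed to 553 to 563 CPM with vehicle, 836 to 1008 with the stem-loop RNAs and 587 to 658 with poly(I:C). They summed to 563 to 649 CPM in naive libraries and 492 to 1064 with pppNS, and the genes went both ways. With SLR10 2 of the 10 rose and 3 fell, with a median of -0.07, where 20.2% of all genes rose and 19.2% fell. Bst2, which interferon also induces in other cells, rose by 3.24 and Tcf4 by 0.97. Lair1 fell by 1.85 and Siglech, a marker of these cells, by 0.73. Between the stem-loop RNAs and poly(I:C), 1 was higher and 1 lower. Neutrophil markers summed to 195 to 200 CPM with vehicle, 532 to 1013 with the stem-loop RNAs and 961 to 1576 with poly(I:C). They summed to 302 to 364 CPM in naive libraries and 356 to 1258 with pppNS, where the ligand genes were near 0. The part of these values in the ligand and receptor levels was not tested.

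Genes with a pattern like each member's were sought among 12653 tested genes by Pearson's correlation of log2(CPM + 0.5) over the 17 libraries, which share their treatment groups, so r is a description. Ifnl2 and Ifnl3 correlated with each other at r = 0.968, and Plagl1, a zinc finger transcription factor gene, came closest to both (r = 0.966 and 0.956). Plagl1 stood at 21.5, 14.6 and 19.98 CPM with poly(I:C), between 3.19 and 4.44 in the 6 stem-loop libraries and between 0.822 and 1.70 in the other libraries. Has3, a hyaluronan synthase gene, was second for both (r = 0.940 and 0.937), and Olfm4 was among the first 5 for both. Samsn1 and Serpinb1a completed the list for Ifnl2, and Tex15 and Akap17b that for Ifnl3.

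The receptor genes had other neighbours. For Ifnlr1 the closest was Mybl1, a MYB family transcription factor gene (r = 0.762, and 0.684 without pppNS replicate 3), followed by Jazf1, Atat1, Txndc11 and Lman1 (r = 0.665 to 0.675). Mybl1 was highest in naive replicate 2, at 8.80 CPM, the library in which Ifnlr1 was highest. For Il10rb the closest were Guca1a (r = 0.931), Apopt1, Serf2, Hcfc1r1 and Ccdc90b, and without pppNS replicate 3 their r ran from 0.812 to 0.894. Ifnlr1 and Il10rb had an r of -0.390 with each other. That value includes pppNS replicate 3, the lowest library for Ifnlr1 and the highest for Il10rb, and it was not computed without this library.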

How the data were processed

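Total RNA from spleen was made into libraries from 500 ng with a stranded mRNA kit, per the labels' protocols. FastQC, TopHat2 2.0.6, SAMtools 1.4, HTSeq and edgeR, with build GRCm38 (mm10), are named in the submitters' processing notes; counting settings are not given in the sources used here. The authors deposited 1 table of edgeR normalized CPM, handled here as a normalized signal because column sums differ between libraries. All values (100%) were whole multiples of 1 read within the tolerance set, which gave recovered reads. That tolerance was 0.01 reads, widened in proportion to the count for the highest counts. Of 39184 lines, 38340 genes were kept after removing 5 lines without a name, 699 named #N/D, 27 named by a number and 113 repeats.

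The main test was limma 3.58.1 (R 4.3.3) with an intensity trend on log2(CPM + 0.5), on genes of at least 1 CPM in 2 libraries, with all 17 libraries in 1 model and Benjamini-Hochberg adjustment over all genes tested; it was tested on simulated data. Alternatives were pseudocounts of 0.1 and 2, no filter, a filter at 5 CPM, median-of-ratios scaling, count tests on the recovered reads (DESeq2 1.42.0 and edgeR 4.0.16), a replicate block, naive as the control, and each library left out. Leaving out the 3 libraries high in erythroid markers was added after seeing the data. Exon lengths came from GENCODE M21, and upstream windows from RefSeq (3 of 4 members matched).

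The members and gene lists were chosen with earlier results of these data known. Genes named were the members, up to 4 genes per list and comparison with the smallest adjusted p, and the 5 most correlated genes per member, leaving out gene models and antigen receptor segments. Il20rb, Ifnar2, Tlr3, Ticam1 and Traf3 with poly(I:C), Jak1, Tyk2, Il22ra1, Il20ra, Ifna1 and Ifng were named after their values were seen.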

Additional observations from a re-analysis of the deposited data

How the results depend on the processing

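Ifnl2 stayed past the threshold as higher with SLR10 under all 14 alternatives and with SLR14 under all 15 (largest adjusted p 0.0001256 and 0.02044). Ifnl3 passed with SLR10 under 12 of 13, and with SLR14 under 3 of 13. With SLR10 the call of Ifnl3 was lost at a pseudocount of 2, and the 5 CPM filter does not test this gene. With SLR14 Ifnl3 passed at a pseudocount of 0.1, with edgeR and with DESeq2, each under the filter that poly(I:C) carried it past. Ifnl3 could not be tested without the libraries high in erythroid markers, where it reached 1 CPM in 1 library. Ifnlr1 and Il10rb passed under no alternative. Their differences near 0 changed sign. Between pppNS and vehicle, with 1 library left out, Ifnlr1 ran from -0.40 to 0.00033 and Il10rb from -0.29 to 0.089. Between vehicle and naive, Ifnlr1 ran from -0.088 to 0.35 with 1 library left out, and with the replicate block it was -0.018 and Il10rb was 0.0040. Between the stem-loop RNAs, Ifnlr1 was -0.0057 by median-of-ratios, -0.033 by edgeR, -0.0034 by DESeq2, -0.14 without the libraries high in erythroid markers and -0.14 to 0.13 with 1 library left out. Il10rb was there -0.0091, -0.028, -0.0064, -0.004 and -0.052 to 0.059 under the same settings. None of these passed, and the cause was not tested.

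Over all genes, the 603 calls between pppNS and vehicle became 1398 with DESeq2 and 1526 with naive as the control, and ran from 156 (without vehicle replicate 2) to 971 (without pppNS replicate 2) with 1 library left out; the share of higher calls was 68.7%, against 55.6% with naive, 57% at a pseudocount of 2, 80.4% at the 5 CPM filter and 89.1% without vehicle replicate 2. The 7 calls between vehicle and naive became 4 (pseudocount 0.1), 11 (pseudocount 2), 21 (no filter), 4 (5 CPM), 1 (edgeR) and 99 (DESeq2), and 0 to 7 with 1 library left out. The 0 calls between the stem-loop RNAs became 1 with DESeq2. The 5030 between poly(I:C) and vehicle fell to 3255 and 3293 without vehicle replicates 1 and 2, and ran up to 5284 with 1 library left out. The 491 between the stem-loop RNAs and poly(I:C) became 1228 with DESeq2, 174 (without poly(I:C) replicate 3) to 1451 (without poly(I:C) replicate 1) with 1 library left out, and 30 without the 3 libraries high in erythroid markers. The share of higher calls there was 47.3%, against 26.7% without poly(I:C) replicate 1, 36.7% without SLR14 replicate 2 and 36.7% without those 3 libraries.

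Replicate numbers did not pair the libraries: deviations from group means correlated at a median of 0.03 for equal numbers and -0.03 for different ones. The replicate block gave 5673 calls in place of 5518 between SLR10 and vehicle and 513 in place of 603 with pppNS, and it changed no member's call; of the other genes named it ended the call of Ticam1 between poly(I:C) and vehicle (adjusted p = 0.07604). Depth limits the ligand genes most: 4 to 62 reads per gene in a stem-loop library and 105 to 352 with poly(I:C).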
